A study of Mus musculus with 2 samples.

Results

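The mRNA levels of 32 genes that mark macrophages and other myeloid cells were read in cultures of mouse embryonic fibroblasts (MEFs) from BCL11B+/+ and BCL11B-/- embryos. All probe sets that the platform annotation pairs with exactly 1 gene, that gene being among the 32, were taken. This gave 56 probe sets of 34945 that name 1 gene and are no controls, and 32 genes of 18193. The MEFs came from C57BL/6 embryos at embryonic day 12.5 and were used at passage 2. Both cultures had spent 12 h in DMEM with 10% FBS, 10 μM pioglitazone, 10 μg/ml insulin, 1 μM dexamethasone and 0.5 mM methylisobutylxanthine, which starts adipocyte differentiation. The authors also list ascorbic acid, penicillin and streptomycin in this medium. By their labels the cultures differed in genotype, wild type (BCL11B+/+) or BCL11B-/-. In the latter both copies of the gene for the zinc finger transcription factor BCL11B are disrupted. For each genotype 1 Affymetrix mouse genome array was hybridized, and the number of embryos behind a culture and a sort of the cells are not given in the sources used here. The values are expression on the log2 scale after the robust multi-array average.

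Macrophages are phagocytes of the innate immune system that settle in almost every tissue of the embryo, where they take up dead cells, and primary cultures made from embryos can carry them along with the fibroblasts. Their identity depends on the transcription factor PU.1, encoded by *Spi1*, and on signals of the receptor for colony stimulating factor 1, encoded by *Csf1r*. They sense antibody-coated particles through Fc receptors, which signal through small adaptor proteins, and they digest what they engulf in lysosomes. The genes were chosen with the difference between these arrays already known, so their shared direction is a description and supports nothing. With 1 array per genotype there is no spread between cultures, no test was made and sizes are described with 1.5-fold as the rule. Fewer cells of a type and less RNA per cell cannot be told apart in such bulk RNA.

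With each gene read on its brightest probe set, the one with the highest mean of both arrays, 14 of the 32 genes fell short of their BCL11B+/+ level by 1.5-fold or more in BCL11B-/- MEFs, none exceeded it by 1.5-fold and 18 were neither. Over all 18193 genes 1.34% were at least 1.5-fold lower and 1.23% at least 1.5-fold higher, from which nothing is read, since the genes were picked on this comparison. The median log2 difference of the 32 genes, BCL11B-/- minus BCL11B+/+, was −0.46, against 0 for all genes. Differences ran from −1.07 for *Mrc1* to 0.24 for *Pld4*. Of the 32 genes 30 lay below 0 and 2 above it, while 46.9% of all genes lay below 0. Counted by probe set, 18 of the 56 lay at least 1.5-fold lower and 0 higher, where the shares among all probe sets were 1.24 and 1.08%. At 1.2-fold 19 of the 32 genes and 28 of the 56 probe sets were lower, against 7.62% of all genes and 8.55% of all probe sets. At 2-fold 1 gene and 2 probe sets were lower, against 0.357 and 0.3%. Among all genes with a mean of at least 5 and of at least 7 log2 units, 1.75 and 1.61% were at least 1.5-fold lower.

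**Figure D1:**
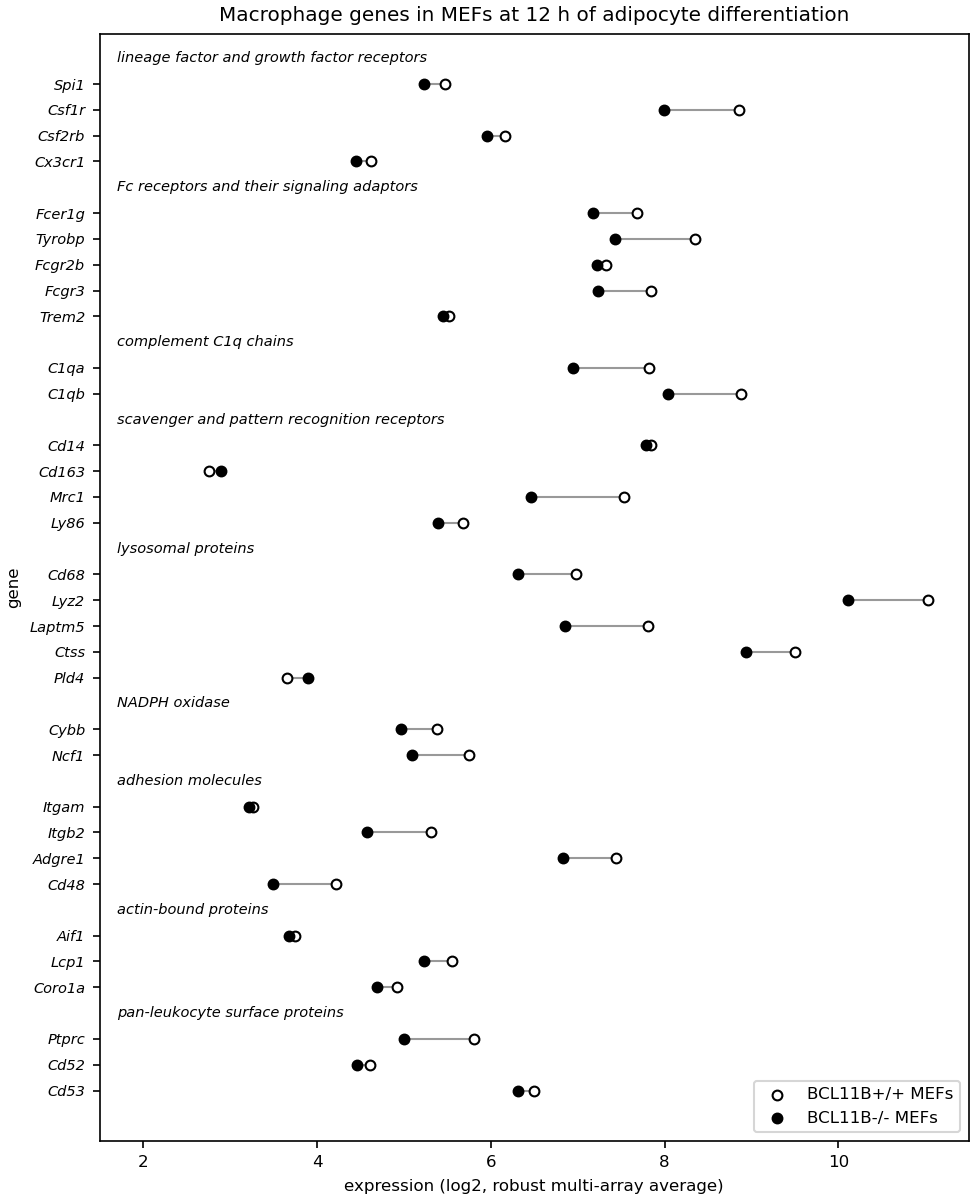
Expression (horizontal axis, log2 after the robust multi-array average) of the 32 genes (vertical axis, grouped by role) at 12 h. Open circles are BCL11B+/+ and filled circles BCL11B-/- MEFs, each gene is drawn on its brightest probe set, and 1 array a genotype leaves no error bar. For 30 genes the filled circle is on the left, farthest for *Mrc1* (7.54 and 6.46), and to the right for *Cd163* and *Pld4*.

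The fibroblast character of the cultures was plain on the arrays. Of 9 measured fibroblast markers, the levels in BCL11B+/+ MEFs lay between 10.5 and 14.1, and the list had medians of 13.0 and 12.5 in BCL11B+/+ and BCL11B-/- MEFs. *Bcl11b*, the targeted gene, was lower on each of its 4 probe sets, by 2.26- to 2.97-fold, and read 8.77 and 7.40 on the brightest. The deleted exons are not given in the sources used here, so these probe sets may lie outside the deleted part. As a measure of RNA integrity, β-actin read 1.64 log2 units higher at its 3′ than at its 5′ control probe set in BCL11B+/+ and 1.47 in BCL11B-/- MEFs. *Xist*, which female cells transcribe from their silenced X chromosome, differed too, with 10.80 and 4.80 on the brightest of its probe sets. The sex of the embryos is not given in the sources used here, and its part in the results on macrophage genes was not tested. With 1 array per genotype, genotype, sex and culture cannot be told apart.

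Among the genes of lineage and growth, *Csf1r* was lower and the other 3 of 4 were neither. *Csf1r* read 8.85 in BCL11B+/+ and 7.99 in BCL11B-/- MEFs, which is 1.82-fold lower. Its second probe set read 7.19 and 6.59 (difference −0.60), and its dimmest, 5.97 and 5.83 (−0.14), so only the dimmest fell short of 1.5-fold. *Spi1*, the gene of PU.1, has 1 probe set, which read 5.48 and 5.24, a difference of −0.24. *Csf2rb*, the shared β chain of receptors for GM-CSF and related cytokines, differed by −0.21 and −0.05 on its 2 probe sets. A further probe set that names both *Csf2rb* and its neighbor *Csf2rb2* was not counted. *Cx3cr1*, the fractalkine receptor, read 4.62 and 4.45, with −0.17 and −0.21 on its 2 probe sets.

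In the group of Fc receptors and their adaptors, *Tyrobp* and *Fcgr3* were at least 1.5-fold lower and 3 of 5 genes were neither. *Tyrobp* encodes DAP12, the adaptor through which TREM2 and many other myeloid receptors signal, and read 8.35 in BCL11B+/+ and 7.43 in BCL11B-/- MEFs, 1.89-fold lower. *Fcer1g*, the γ chain that activating Fc receptors share, read 7.68 and 7.18, 1.42-fold lower and short of the rule. *Fcgr3*, an activating receptor for IgG that needs this chain, read 7.85 and 7.24, 1.52-fold lower, which is just past the rule. *Fcgr2b*, the inhibitory receptor for IgG, read 7.33 and 7.23 on its brightest probe set, a difference of −0.10. Its 4 dimmer probe sets gave −0.43, −0.30, −0.15 and 0.12. *Fcgr2b* and *Fcgr3* encode similar receptors, and cross-hybridization between their probe sets was not measured. *Trem2*, a lipid-sensing receptor that pairs with DAP12, read 5.52 and 5.45, with −0.07 and 0.19 on its 2 probe sets.

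Both named chains of complement C1q, the recognition protein of the classical complement pathway that macrophages secrete, were lower. *C1qa* read 7.82 in BCL11B+/+ and 6.94 in BCL11B-/- MEFs, 1.84-fold lower. *C1qb* read 8.88 and 8.04, 1.79-fold lower, and its 3 probe sets gave −0.84, −0.71 and −0.90. Of 13 genes with several probe sets, *C1qb* was the only one where all of them passed 1.5-fold. Its probe sets at −0.84 and −0.71 carry an _x suffix, which marks probes that may bind other transcripts. The remaining chain, *C1qc*, which was not among the 32 genes, read 6.92 and 6.01, a difference of −0.91. The 3 genes are next to each other on chromosome 4 in the RefSeq gene table.

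The scavenger and pattern recognition receptors differed widely among themselves, with 1 of 4 lower. *Mrc1*, the mannose receptor of tissue macrophages, read 7.54 in BCL11B+/+ and 6.46 in BCL11B-/- MEFs, 2.10-fold lower, and was the only gene of the 32 past 2-fold. *Cd14*, the co-receptor for lipopolysaccharide, read 7.85 and 7.79, a difference of −0.06. *Cd14* is not confined to macrophages and is also made by fibroblasts. *Ly86*, which encodes MD-1, the partner of the toll-like receptor homolog RP105, read 5.68 and 5.39, a difference of −0.29. *Cd163*, the hemoglobin scavenger receptor, was dim with 2.76 and 2.89.

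Of 5 lysosomal genes 3 were lower. *Lyz2*, which encodes the lysozyme of macrophages and neutrophils, read 11.03 in BCL11B+/+ and 10.11 in BCL11B-/- MEFs, 1.89-fold lower. Its close relative *Lyz1*, chosen after its values were seen, differed by −0.79 on 2 probe sets that carry an _x suffix, which marks probes that may bind other transcripts, and by −0.40 on another. How far the *Lyz1* and *Lyz2* probe sets are separate measurements was not tested. *Laptm5*, a lysosomal membrane protein of hematopoietic cells, read 7.81 and 6.86, 1.93-fold lower, but its other 4 probe sets gave −0.35, 0.04, −0.13 and −0.39. The brightest *Laptm5* probe set carries an _x suffix too, and the one at 0.04 carries no suffix. *Cd68*, a glycoprotein of lysosomes and endosomes, read 6.99 and 6.31, a difference of −0.68, which is past the rule. *Ctss*, the protease cathepsin S, read 9.50 and 8.94, 1.48-fold lower and just short of the rule. *Pld4*, an exonuclease of the endolysosome, read 3.66 and 3.89, the highest difference of the 32 genes.

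The 2 NADPH oxidase genes, whose products form the enzyme of the respiratory burst, were both below 0. *Ncf1*, which encodes the cytosolic subunit p47phox, read 5.75 in BCL11B+/+ and 5.09 in BCL11B-/- MEFs, 1.58-fold lower, and its dimmer probe sets gave −0.28 and 0.04. *Cybb*, which encodes the catalytic subunit gp91phox, read 5.38 and 4.97, a difference of −0.41, with −0.07 and −0.16 on the other probe sets. *Cyba*, the membrane partner of *Cybb* that many cell types make, read 8.97 and 9.02, a difference of 0.05.

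Among adhesion molecules 3 of 4 were lower. *Itgb2*, the integrin β2 chain of leukocytes, read 5.31 in BCL11B+/+ and 4.58 in BCL11B-/- MEFs, 1.66-fold lower. *Itgam*, the αM chain that pairs with it, was dim with 3.26 and 3.22. *Adgre1*, which encodes the mouse macrophage antigen F4/80, read 7.44 and 6.83, 1.53-fold lower and just past the rule. *Cd48*, a ligand of the receptor CD244, read 4.21 and 3.50, 1.65-fold lower with both values under the median of their array.

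None of the 3 genes of actin-bound proteins passed the rule on its brightest probe set. *Lcp1*, which encodes the actin bundling protein L-plastin, read 5.55 and 5.23 there, a difference of −0.33. Its other probe set was nearly as bright in the mean and read 5.96 and 4.73, a difference of −1.23, so the choice between them decides whether *Lcp1* is counted. *Coro1a*, coronin 1A, gave −0.24, 0 and 0.13, and *Aif1*, which encodes IBA1, read 3.74 and 3.68. Of the surface proteins found on most leukocytes, *Ptprc*, which encodes CD45, read 5.81 and 5.0, 1.75-fold lower, but its second probe set read 3.68 and 3.78. *Cd52* read 4.61 and 4.45 and the tetraspanin gene *Cd53* read 6.49 and 6.31, with differences of −0.16 and −0.18.

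Probe sets of the same gene did not always give the same size. Of 13 genes with several probe sets, 7 had all differences on one side of 0 and 6 did not. At least 1 probe set was 1.5-fold lower in 6 of the 13 genes, all were in *C1qb* alone, and none was in 7. The pooled SD of the differences among probe sets of 1 gene was 0.309 log2 units over these 13 genes and 0.171 over all 9010 genes with several probe sets. This SD describes the array and holds no variation between cultures. The genes whose probe sets lay farthest apart were *Laptm5* (0.99 log2 units between the extremes), *Ptprc* (0.91), *Lcp1* (0.91), *Csf1r* (0.73) and *Ncf1* (0.71).

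**Figure D2:**
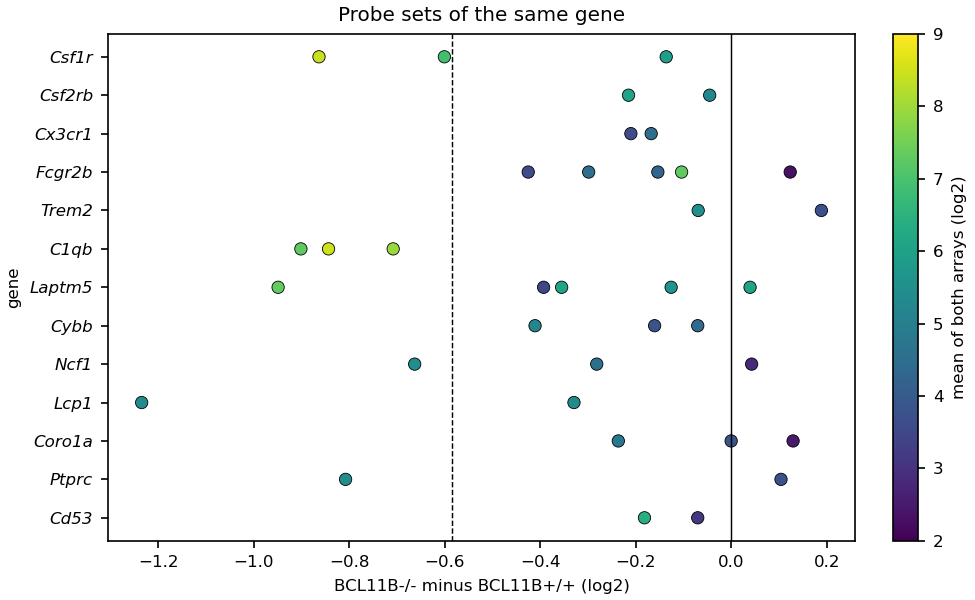
Log2 difference, BCL11B-/- minus BCL11B+/+ MEFs (horizontal axis), for each probe set of the 13 genes with several probe sets (vertical axis), colored by the mean level of the probe set on both arrays. The solid line is 0 and the dashed line 1.5-fold lower. The 3 probe sets of *C1qb* lie together between −0.90 and −0.71, and the 5 of *Laptm5* spread from −0.95 to 0.04.

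Brighter and dimmer probe sets of the macrophage genes were set apart by their mean level. Of 15 probe sets of the macrophage genes with a mean of at least 7 log2 units, 11 were at least 1.5-fold lower, with a median of −0.84, and 1.52% of all probe sets of that level were. Of the 15, the 4 that were not belonged to *Fcer1g*, *Fcgr2b*, *Cd14* and *Ctss*. From 5 to 7 log2 units, 5 of 17 were lower, with a median of −0.30, where all probe sets had 1.81%. From 4 to 5, 1 of 8 was lower (*Itgb2*) and the median was −0.20, and below 4, 1 of 16 was lower (*Cd48*) and the median was −0.02. The shares of all probe sets there were 0.826 and 0.363%. Each of these bins holds at most 17 probe sets, and several belong to the same gene. A mean of at least 7 can be reached through BCL11B+/+ MEFs alone. In BCL11B-/- MEFs *Mrc1*, *C1qa*, *Laptm5*, *Adgre1* and the dimmest *C1qb* probe set of this bin read below 7. The genes were also picked on this comparison, so nothing is read from these counts. Low values on such arrays hold background, whose part in these differences was not tested. In BCL11B+/+ MEFs 13 of the 32 genes read above the upper quartile of the array (7.32) and 8 below its median (5.28), and in BCL11B-/- MEFs 6 were above the quartile (7.30) and 14 below the median. The values carry no call of presence, so a dim gene such as *Cd163* or *Itgam* cannot be called absent.

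**Figure D3:**
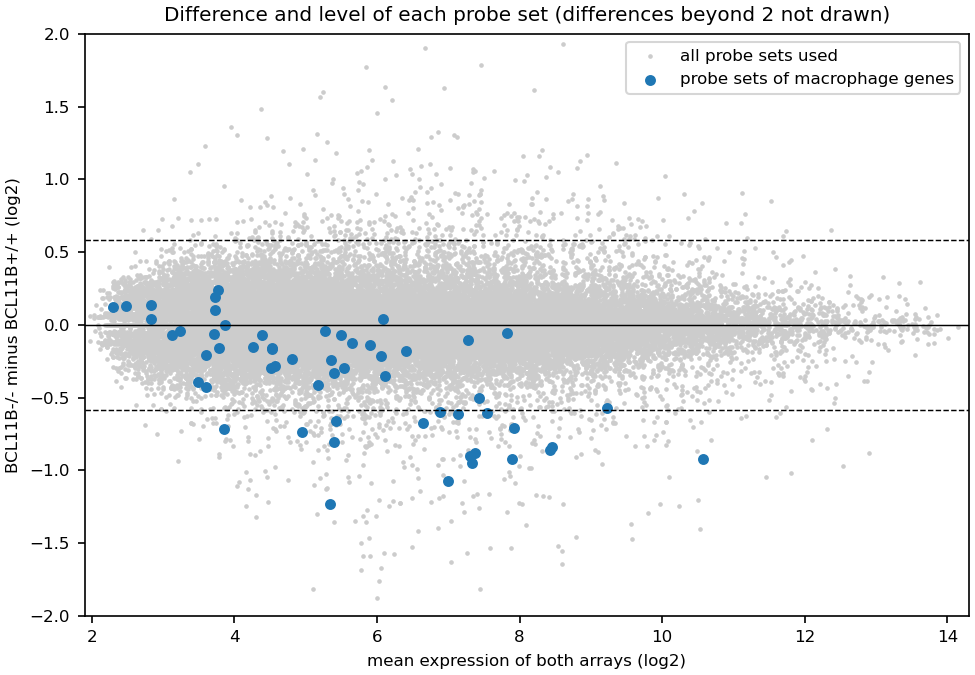
Log2 difference between BCL11B-/- and BCL11B+/+ MEFs (vertical axis) against the mean level of both arrays (horizontal axis, log2) for all 34945 probe sets used (grey) and the 56 of the macrophage genes (blue). The solid line is 0 and the dashed lines are 1.5-fold. Most blue points right of 7 lie below the lower dashed line (11 of 15), and those left of 4 scatter around 0. The macrophage genes were picked on this difference.

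Promoters of these genes could be read for 23 of the 32 genes from RefSeq on the mouse build GRCm38.p6. The 250 bases before each start were searched for GAGGAA on both strands (TTCCTC on the printed strand), the core of sites that PU.1 binds. It was found in 11 of the 23 genes (47.8%), and in 25.9% of all 27025 genes with such a stretch. By size, 6 of the 9 genes at least 1.5-fold lower with such a stretch and 5 of 14 others held it. *Csf1r*, *Tyrobp*, *C1qa*, *Itgb2* and *Adgre1*, which were also lower, had no such stretch to read. The genes were picked on this comparison and the numbers are small, so nothing is read from this split. Of 4 genes at least 1.5-fold lower, 3 with the letters and 1 without are given here, 5′ to 3′ in the direction of the gene with the matches in capitals. *Mrc1* lies at chr2:14229164-14229413 on the plus strand, *C1qb* at chr4:136886201-136886450 on the minus strand, *Laptm5* at chr4:130913066-130913315 on the plus strand and *Lyz2* at chr10:117282273-117282522 on the minus strand.
Mrc1: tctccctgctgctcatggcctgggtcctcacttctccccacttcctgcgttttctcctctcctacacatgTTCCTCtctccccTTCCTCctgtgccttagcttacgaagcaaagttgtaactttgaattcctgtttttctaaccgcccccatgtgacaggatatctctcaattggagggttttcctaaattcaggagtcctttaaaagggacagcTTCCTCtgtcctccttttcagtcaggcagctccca
C1qb: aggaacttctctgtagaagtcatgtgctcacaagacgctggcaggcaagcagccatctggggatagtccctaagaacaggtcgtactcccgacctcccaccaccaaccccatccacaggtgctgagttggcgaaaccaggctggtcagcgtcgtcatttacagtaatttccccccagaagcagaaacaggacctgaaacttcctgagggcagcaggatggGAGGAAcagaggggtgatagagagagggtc
Laptm5: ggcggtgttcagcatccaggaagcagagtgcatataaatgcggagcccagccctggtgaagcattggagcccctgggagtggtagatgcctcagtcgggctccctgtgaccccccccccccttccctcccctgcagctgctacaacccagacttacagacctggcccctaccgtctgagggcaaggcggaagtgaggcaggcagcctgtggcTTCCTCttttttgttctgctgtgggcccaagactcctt
Lyz2: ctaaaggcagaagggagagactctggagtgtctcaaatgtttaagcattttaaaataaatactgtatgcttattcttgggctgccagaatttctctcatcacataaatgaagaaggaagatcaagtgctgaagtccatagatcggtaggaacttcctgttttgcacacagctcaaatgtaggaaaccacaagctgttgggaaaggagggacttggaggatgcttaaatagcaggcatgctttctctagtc
*Mrc1*, the gene that differed most, holds 3 matches, which begin 180, 167 and 35 bases before the start. *C1qb* holds 1 at 30 bases and *Laptm5* 1 at 38 bases before the start, while the stretch before *Lyz2* holds none. A match is a run of letters and not a measured site, and its absence says only that these letters are not in this stretch.

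Macrophage genes outside the 32 were counted from further lists. These lists too were chosen with earlier results of these data known, so the counts are descriptions. Over all genes 1.34% were at least 1.5-fold lower and 1.23% higher on their brightest probe set. Of 30 measured surface genes of macrophages, 6 were at least 1.5-fold lower, 1 was higher and 23 were neither, with a median of −0.16 and 23 below 0. The lowest was *Ms4a6c*, a membrane protein gene of the MS4A family, which read 8.31 in BCL11B+/+ and 7.25 in BCL11B-/- MEFs. *Mpeg1*, the pore-forming perforin-2 of phagocytes, read 7.99 and 7.22, the RNA sensor gene *Tlr7* differed by −0.77 and *Cd300a* by −0.74. The one that was higher was the scavenger receptor gene *Marco*, at 4.33 and 4.95. With the mean or the median over all probe sets of a gene, 2 of the 30 were lower, *Mpeg1* and *Stab1* (−0.71), and none was higher. *Ms4a6c* then differed by −0.58, just short of the rule, *Cd300a* by −0.24 and *Marco* by 0.36, and *Tlr7* by −0.28 with the mean and −0.07 with the median. Of 23 genes of myeloid signaling and cytoskeleton, 1 was lower (*Plek*, which encodes pleckstrin, 6.28 and 5.32), none was higher and the median was −0.05. *Plek* fell short of the rule with the mean (−0.555) and with the median (−0.57) over its probe sets. None of 8 myeloid transcription factor genes passed the rule, from *Tfec* with −0.52 to *Runx1* with 0.58. None of 6 MHC class II genes did, and their levels lay between 4.58 and 5.47 in both cultures.

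Markers of other blood cells were read from 7 further lists, beside shares of 1.34% lower and 1.23% higher over all genes. None of 4 B cell, 5 T and NK cell, 6 mast cell, 8 neutrophil, 6 dendritic cell and 7 erythroid markers was 1.5-fold apart. Their list medians lay between −0.04 and 0.12, and their levels between 2.56 and 5.8 over both cultures. Of 5 megakaryocyte markers, *Ppbp* was higher with 0.71, at 4.07 and 4.78, and the other 4 were neither. Megakaryocyte markers included brighter ones than the 6 lists above, with *Pf4*, the platelet factor 4 gene, at 6.77 and 6.52, *Itga2b*, an integrin gene of platelets, at 6.52 with a difference of −0.02 and *Gp1bb*, a platelet glycoprotein gene, at 6.24 and 5.98. The list had medians of 6.24 in BCL11B+/+ and 5.98 in BCL11B-/- MEFs. None of 8 endothelial markers was 1.5-fold apart, with a median of 0.13. Of 7 osteoclast markers, *Ctsk*, the protease cathepsin K that fibroblasts also make, was lower at 10.58 and 9.35, while *Acp5*, the tartrate-resistant acid phosphatase, differed by 0.12.

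Lysosome genes, fibroblast markers and genes of factors that stroma can make did not all move alike. Over all genes 1.34% were at least 1.5-fold lower and 1.23% higher. Of 15 lysosome genes that most cell types express, none was 1.5-fold apart, with a median of −0.11 and *Lgmn*, the protease legumain, lowest with −0.51. Of 9 fibroblast markers 2 were lower, the matrix proteoglycan gene *Dcn* with −0.88 and the surface antigen gene *Thy1* with −0.65, and the median was −0.11. Of 10 growth factors and attractants of macrophages that stroma can make, 1 was lower. This was the monocyte chemokine gene *Ccl7*, which read 7.11 in BCL11B+/+ and 6.05 in BCL11B-/- MEFs. Another monocyte chemokine gene, *Ccl2*, read 7.15 and 6.60, 1.46-fold lower and just short of the rule. Only 3 of the 10 lay below 0, and the median was 0.10. The highest of the 10 was *Il34*, which encodes the second ligand of the *Csf1r* product, with 0.52 at 4.45 and 4.98. Both values lay under the median of their array. *Csf1*, the gene of colony stimulating factor 1, read 9.14 and 9.41. The part of these genes in the lower macrophage genes was not tested.

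**Figure D4:**
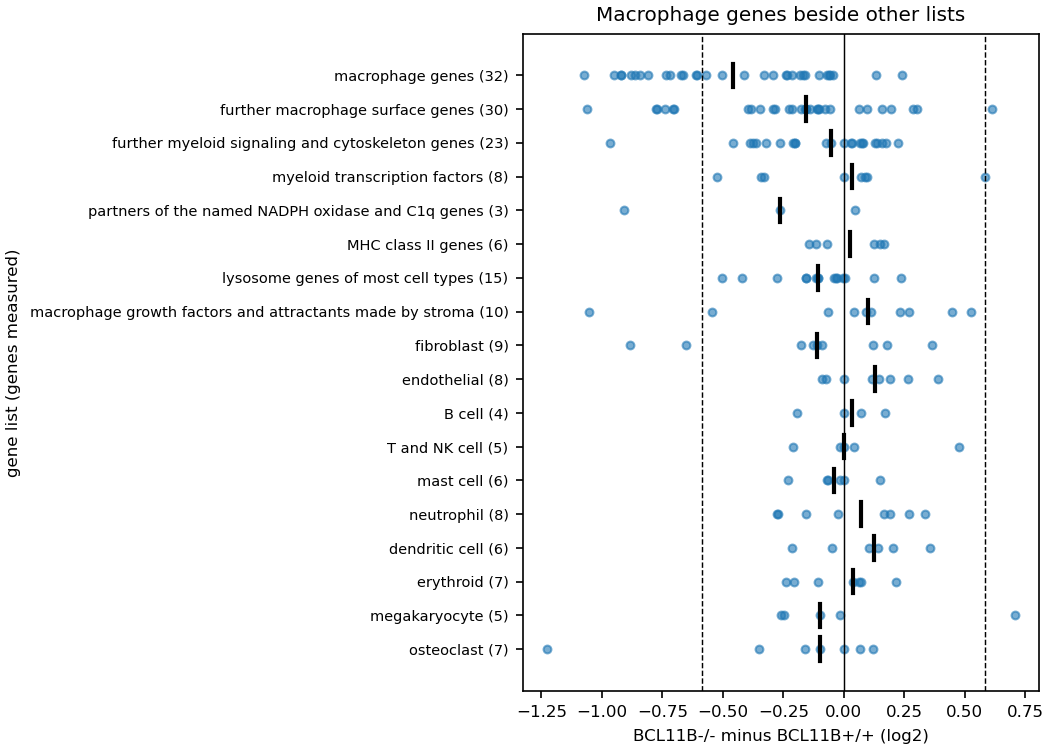
Log2 difference, BCL11B-/- minus BCL11B+/+ MEFs (horizontal axis), of the genes of 18 lists (vertical axis, genes measured in brackets), each gene on its brightest probe set. Blue points are genes, black bars list medians and dashed lines 1.5-fold. The median of the 32 macrophage genes is −0.46, that of further macrophage surface genes −0.16, and the medians of B cell to erythroid lists lie between −0.04 and 0.12. Medians of the myeloid signaling and cytoskeleton, myeloid transcription factor and MHC class II lists are −0.05, 0.03 and 0.03. The 32 macrophage genes were picked on this difference.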

How the data were processed

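Total RNA of BCL11B+/+ and BCL11B-/- MEFs was hybridized by the authors to 1 Affymetrix mouse genome array each. The authors corrected background, normalized between arrays and summarized probes by the robust multi-array average. The deposited values are therefore log2 expression, and the submitters' processing notes name R 3.0.3. A change of total mRNA is hidden by such normalization, and 5.82% of probe sets with 1 gene differed by exactly 0.

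Of 45101 probe sets in the table, the annotation named 1 gene for 34958, several for 932 and none for 9211. Only those with 1 gene were used, without 13 controls. All 32 macrophage genes matched a RefSeq symbol by Entrez identifier. Each gene was read on the probe set with its highest mean of both arrays, without a filter on level. The members and lists were chosen with earlier results of these data known. All 32 genes were named, and of other lists the members past 1.5-fold, up to 4, or else the highest and lowest. Chosen after their values were seen were *Lyz1*, *Cyba*, *Marco*, *Stab1*, *Pf4*, *Itga2b*, *Gp1bb*, *Lipa*, *Acp5*, *Il34*, *Ccl2*, *Csf1* and *Xist*. Alternatives were other choices of probe set, a loess fit with a span of 0.4, floors of 5 and 7 log2 units, and 1.2- and 2-fold. The code for counts and medians was checked on simulated arrays with planted differences, which is no null for these results. Precision is limited by the 2 arrays. Python 3.11.15, numpy 2.4.6, pandas 2.3.3, statsmodels 0.14.6 and matplotlib 3.10.9 were used.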

Additional observations from a re-analysis of the deposited data

How the results depend on the processing

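The median difference of the macrophage genes stayed below 0 under all alternatives run, while its size moved. The median of −0.46 over 32 genes became −0.31 when probe sets named with the suffix _x, _s or _a were left out (30 genes), −0.61 with a mean of at least 5 (23 genes) and −0.84 with a mean of at least 7 (13 genes). Of the 32 genes, 14 were 1.5-fold lower on their brightest probe set, 11 with the mean and 12 with the median over their probe sets, and 11 of 30 without suffixed ones. At a mean of at least 7, 9 of 13 genes and 11 of 15 probe sets were 1.5-fold lower, which are fewer by construction. A floor keeps a gene more easily where it is high, so these counts support nothing. At 2-fold 1 gene and 2 probe sets were lower (0.357% of all genes and 0.3% of all probe sets), and at 1.2-fold 19 genes and 28 probe sets (7.62 and 8.55%). Without suffixed probe sets *Laptm5* turned to 0.040 and *Ptprc* to 0.10. Of 126 alternative values of single genes, 107 moved by less than 0.145 log2 units and 19 by more. This bound is the pooled SD among probe sets with a mean of at least 5. Many of the 107 were fixed in advance, since 19 of the 32 genes have 1 probe set. The loess fit, from −0.0112 to 0.0138, could not move a value by 0.145 either. The count of 107 therefore supports nothing. Of these 126 values 7, in 5 genes, lay on the other side of 0. Besides *Laptm5* and *Ptprc*, these were *Fcgr2b* (0.12), *Coro1a* (0.13) and *Trem2* (0.19) without suffixed probe sets, and *Trem2* (0.060) with the mean and with the median over its probe sets. *Tyrobp*, *Fcgr3*, *C1qa*, *C1qb*, *Mrc1*, *Cd68*, *Lyz2*, *Itgb2*, *Adgre1* and *Cd48* were 1.5-fold lower under each choice of probe set that gave them a value and after the loess fit. Of these 10, all but *C1qb* have 1 probe set, so a choice of probe set could not move them. Of 92 alternative medians of other lists 82 moved by less than 0.145, and the loess fit could not move these by as much either. Those that moved by more rest on few genes, given in brackets. For NADPH oxidase and C1q partners they were −0.59 without suffixes (2 genes), −0.43 with a floor of 5 (2) and 0.046 with a floor of 7 (1). With a floor of 5 they were −0.34 for further macrophage surface genes (14 genes), −0.33 for myeloid transcription factors (3), −0.21 for erythroid (1) and −0.56 for osteoclast markers (2). With a floor of 7 they were −0.92 for further macrophage surface genes (2), 0.27 for stromal factors (3) and −1.23 for osteoclast markers (1, *Ctsk*). Without suffixed probe sets the lysosome gene *Lipa* was lower with −0.61 (main value −0.42), and after the loess fit *Runx1* was higher with 0.59. The cause was not tested. No paired analysis was possible because each genotype has 1 array. No replicate could be left out.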
